A study of Mus with 8 samples.

Results

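The genes described here are those of glucose use in brown fat. They cover glucose entry and glycolysis, lactate and pyruvate transport, the control of pyruvate dehydrogenase, glycerol 3-phosphate and phosphoenolpyruvate synthesis, and the pentose phosphate pathway. The list held 33 genes. A gene was measured where a probe set was annotated with that gene alone, and the probe set with the highest mean stood for it. By that rule 26 of the 33 were measured, among 30702 genes in all. Gpi1, Pfkfb1, Eno1, Mpc2, G6pdx, Pfkfb2 and Tkt were not analysed here. The probe sets of Pfkfb2 and Tkt are annotated with a second gene as well.

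RNA came from interscapular brown adipose tissue of C57BL/6 mice, 4 labelled HILPDA KO and 4 labelled WT, with 1 Affymetrix array per mouse. Hilpda encodes a small lipid droplet protein known to inhibit adipose triglyceride lipase. The comparison asked which transcripts differ when Hilpda is lost. The sources used here state neither the allele, nor the cell types in which the gene is lost, nor the age of the mice. All values are log2 expression values, so a difference of 1 is a doubling.

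The arrays form 2 sets whose values lie on different scales. Replicates 1 and 2 of both groups (set 1) had a median named gene at 3.93 to 3.99 and a highest value of 19.93. Replicates 3 and 4 of both groups (set 2) had medians of 4.92 to 4.97 and highest values of 19.68 to 19.77. Differences are therefore given within each set, or over both with the set as a block. Hilpda read 4.45, 4.37, 5.60 and 5.51 in KO replicates 1 to 4, against 4.37, 4.28, 6.00 and 5.92 in WT replicates 1 to 4. It was lower in the arrays labelled KO within set 2 only (a difference of -0.40 with a limma adjusted p of 0.144, against 0.09 in set 1), so "KO" means the arrays labelled KO throughout. The sources used here do not place its probe set inside or outside the deletion. All 10 brown adipocyte markers measured were above background on all 8 arrays, and Ucp1 read 19.68 to 19.93, at the top of the scale. The labels call the mice female, whereas Xist was below background on all 8 arrays and the Y-linked gene Uty read 9.31 to 10.93.

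Markers of skeletal muscle and liver differed between arrays, and the source of that RNA was not tested. The mean of 22 skeletal muscle markers was 6.10, 8.79, 5.69 and 10.20 in KO replicates 1 to 4, against 7.85, 7.29, 10.60 and 8.97 in WT replicates 1 to 4. All 22 were lower in KO over both sets, 13 of them were above background on all 8 arrays, and their median difference was -0.06 in set 1 and -1.43 in set 2, though none passed the adjusted test over both sets. The mean of 16 liver markers was 11.89, 8.65, 5.21 and 5.41 in KO, against 8.23, 6.43, 5.16 and 5.09 in WT, with 4 of the 16 above background on every array. All 16 were higher in KO over both sets, with a median difference of 3.03 in set 1 and 0.08 in set 2. Within set 2, 6 of 7 general adipocyte markers were lower in KO (median -0.18) and 6 of 6 macrophage markers were higher (median 0.30), against medians of 0.01 and 0.00 in set 1. The 10 brown adipocyte markers had median differences of 0.01 in set 1 and -0.01 in set 2. In KO 5 were higher and 4 lower in set 1, and 4 were higher and 6 lower in set 2. Among single markers, Plin1, a lipid droplet coat protein, differed by 0.67 in set 1 and -1.91 in set 2. The brown adipocyte marker Dio2, the cold-induced deiodinase, differed by -4.63 and 2.02. In whole tissue, fewer cells of a type and less RNA per cell cannot be told apart.

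Glycolysis splits glucose into pyruvate, which is reduced to lactate, exported, or carried into mitochondria and oxidised by pyruvate dehydrogenase. Pyruvate dehydrogenase is switched off by kinases of the Pdk family and on again by the phosphatases Pdp1 and Pdp2. Brown adipocytes take up much glucose when activated. They also use it to make glycerol 3-phosphate, the backbone onto which fatty acids are esterified. The oxidative arm of the pentose phosphate pathway supplies NADPH for fatty acid synthesis.

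Over both sets, no measured gene of the module was called different between KO and WT. None of the 26 members had an unadjusted p under 0.05 in limma with the set as a block, where 4.82% of all genes did. After Benjamini-Hochberg adjustment 0% of the 30702 genes passed, and the lowest adjusted p of a member was 0.984. Differences ran between -0.30 (Pfkm) and 0.29 (Slc16a1), with 10 members higher and 16 lower. The median was -0.02 for the members and 0.01 for all genes, and the median size without sign was 0.07 and 0.08. The intervals were narrow for some members and wide for others. They spanned -0.17 to 0.13 for Aldoa and Ldha, whose values in set 1 were tied, and -0.98 to 1.57 for Slc16a1, so a doubling of Slc16a1 lay inside its interval.

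**Figure D1:**
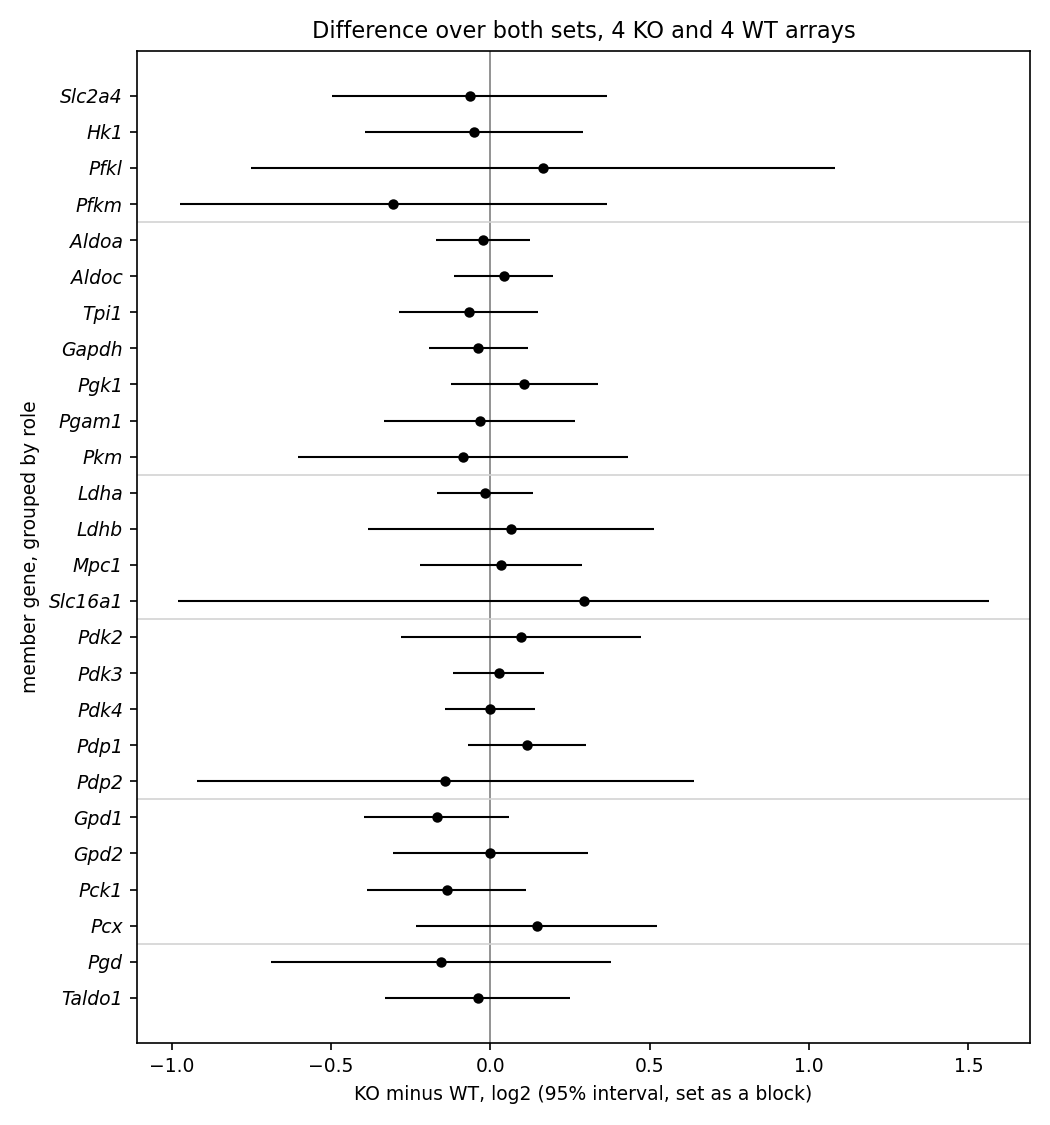
KO minus WT on the log2 scale for the 26 measured members, with the array set as a block (4 KO and 4 WT arrays). Points are the fitted differences, lines the 95% intervals from limma, and grey lines part the 6 role groups. Every interval includes 0, and those of Slc16a1, Pfkl, Pdp2 and Pfkm are the widest.

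Within the sets, several members differed in opposite directions, and none of these differences passed adjustment. Within set 1, 3 members had an unadjusted p under 0.05 (Slc16a1 higher, Pdp2 and Ldhb lower), against a background of 7.73% of all genes, and no gene passed adjustment (0%). Within set 2, 6 members did (Pdp2 and Ldhb higher; Slc16a1, Hk1, Gpd1 and Pfkm lower), against 15.1% of all genes, and 0.00326% of all genes passed adjustment, none a member. The difference between the sets had an unadjusted p under 0.05 for 5 members (Pdp2 and Ldhb positive; Slc16a1, Hk1 and Gpd1 negative), against 14.9% of all genes. Among the members the shares were 11.5% in set 1, 23.1% in set 2 and 19.2% between the sets. Among genes above background they were 12.4%, 22.2% and 23.7%. In the test between the sets 0.498% of all genes passed adjustment and no member did, with a lowest limma adjusted p of 0.0746 (Pdp2). The count of all genes behind that share, 153, was 0 to 10 when any 1 of the 8 arrays was left out.

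No member had KO and WT values that did not overlap, in one direction, within both sets, as 5.3% of all genes did. For 4 of the 26 (15.4%) the groups were parted in opposite directions in the sets, against 12.7% of all genes. These were Slc16a1, Pdp2, Ldhb and Hk1. The share is close to the background, and it was 18.5% among all genes above background. Differences of opposite sign in the sets were found for 18 of the 26 members (69.2%). That compares with 56.8% of all genes and 61.8% of genes above background. Another 4 members had identical values on all arrays of set 1 and so no sign there.

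**Figure D2:**
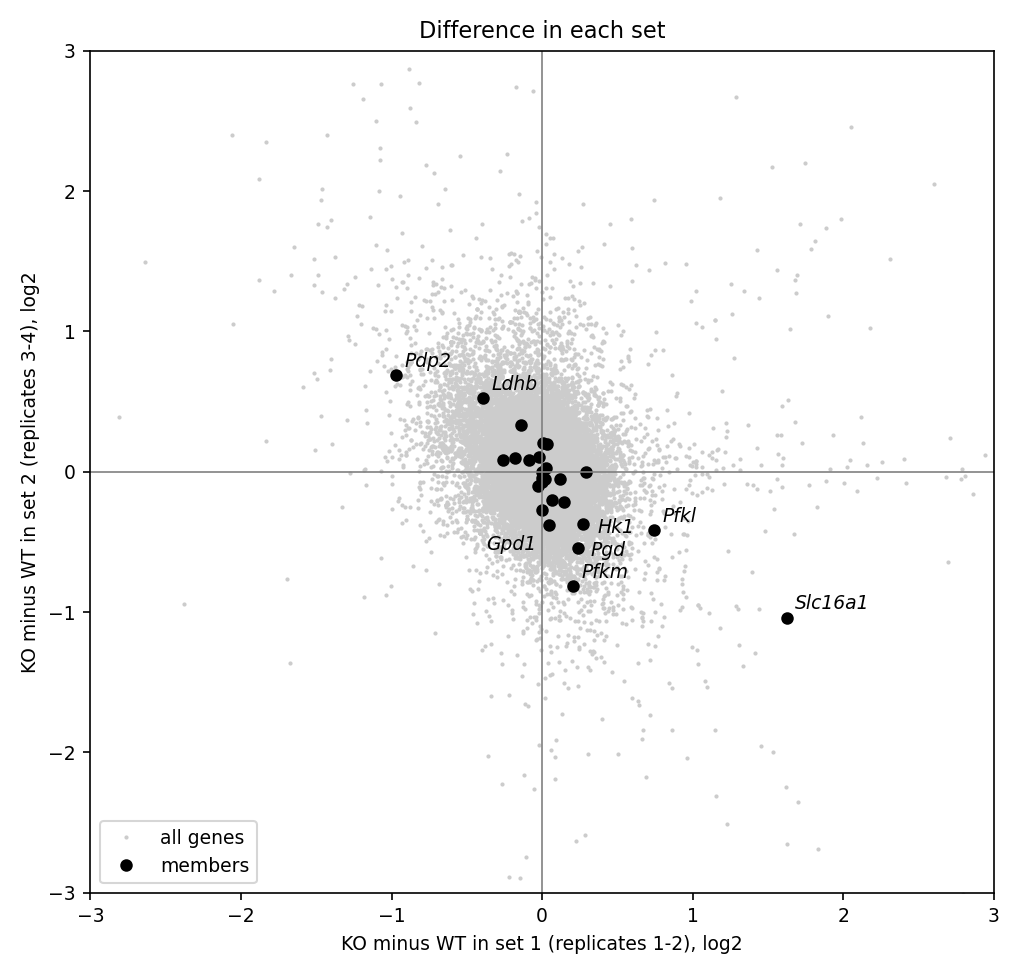
KO minus WT in set 1 (horizontal axis) and in set 2 (vertical axis), both log2. Black points are the 26 members and grey points all genes, of which 33 lie outside the axes at 3. Slc16a1 (1.63 and -1.04) and Pdp2 (-0.97 and 0.69) lie farthest from the centre among members, in opposite quadrants.

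The first steps bring glucose into the cell and commit it to glycolysis. None of the 4 measured members of this group had an unadjusted p under 0.05 over both sets. All 4 were lower in KO within set 2, as were 14272 of all 30702 genes. Slc2a4, the insulin-responsive glucose transporter, had no difference beyond its spread in either set (-0.03 and -0.10). Hk1, a hexokinase that traps glucose as glucose 6-phosphate, read 4.75 and 5.01 in KO against 4.64 and 4.58 in WT in set 1, and 5.71 and 5.95 in KO against 6.15 and 6.25 in WT in set 2. Its groups did not overlap in either set, with KO above WT in set 1 and below WT in set 2. The differences were 0.27 and -0.38 (SE 0.13 each), and the sets differed by -0.65 (95% interval -1.09 to -0.21, limma adjusted p = 0.172).

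Pfkl and Pfkm encode the liver and muscle subunits of phosphofructokinase, which catalyses the committed step of glycolysis. Pfkm read 9.34 and 10.25 in KO against 9.64 and 9.53 in WT in set 1, and 9.95 and 10.62 in KO against 11.24 and 10.97 in WT in set 2. The groups overlapped in set 1, and both KO arrays lay below both WT arrays in set 2, a difference of -0.81 (SE 0.33, limma adjusted p = 0.308). Pfkl read 10.02 and 10.02 in KO against 9.37 and 9.19 in WT in set 1, and 10.73 and 12.44 in KO against 12.27 and 11.73 in WT in set 2. In set 1 both KO arrays were higher, a difference of 0.74 (SE 0.49, limma adjusted p = 0.861). In set 2 the KO arrays were the lowest and the highest of the 4.

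Muscle markers were low on the array with the lowest Pfkm and Pfkl values of set 2. That array, KO replicate 3, had a muscle marker mean of 5.69, the lowest of the 8. In set 1, KO replicate 1 had the lowest muscle marker mean, 6.10, and the lowest Pfkm value, whereas its Pfkl value was above that of both WT arrays of the set. Eno3, the muscle enolase, is not in the module, and within each set its values had the same order as the muscle marker mean. It read 7.97, 9.82, 8.02 and 11.12 in KO replicates 1 to 4, against 8.81, 8.38, 11.42 and 9.97 in WT replicates 1 to 4. The part of muscle RNA in the Pfkm and Pfkl differences was not tested.

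**Figure D3:**
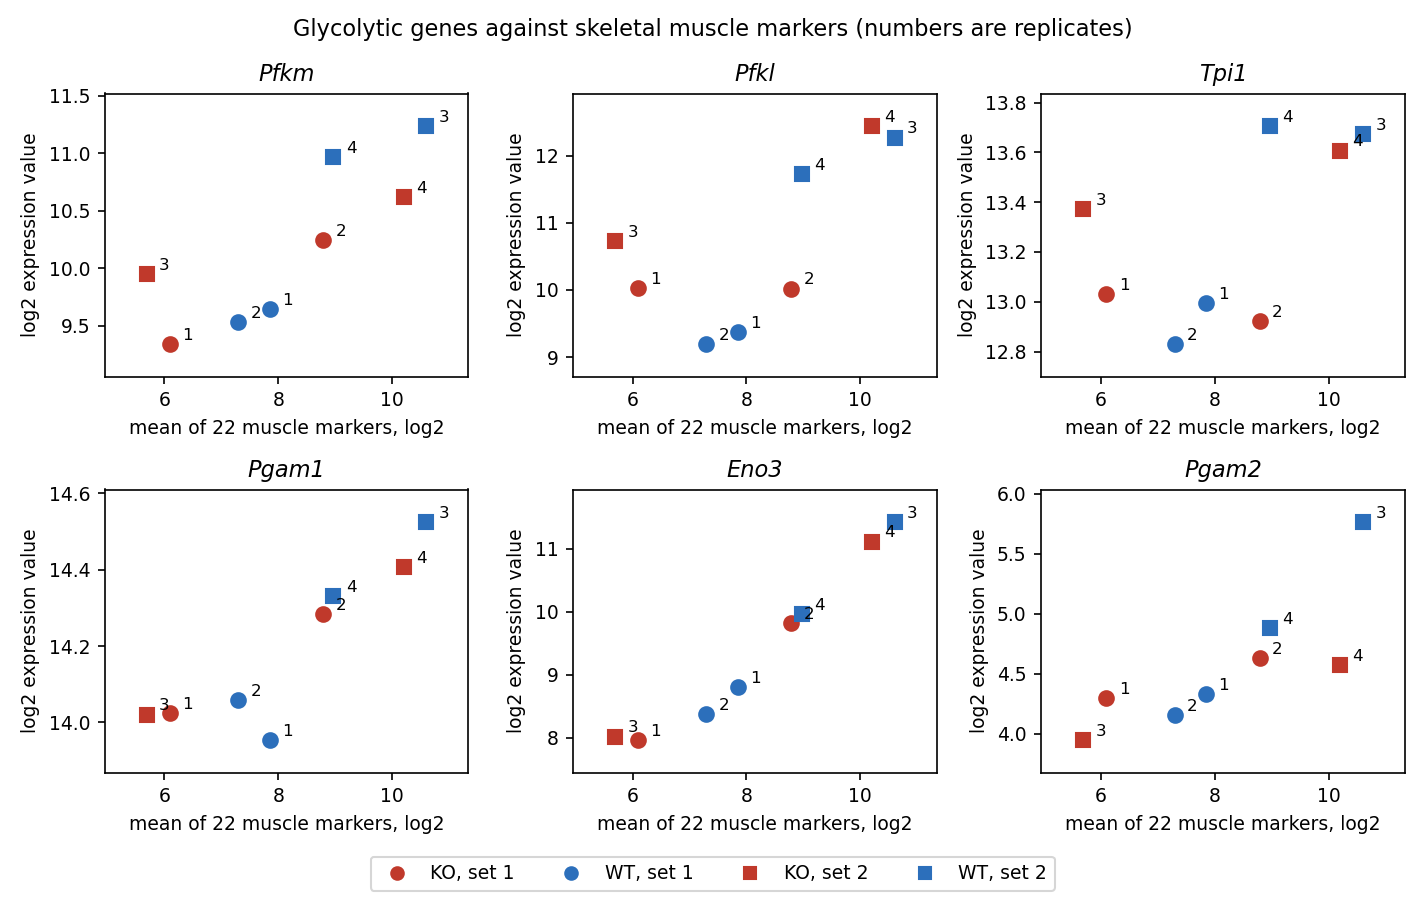
Log2 values of Pfkm, Pfkl, Tpi1, Pgam1, Eno3 and Pgam2 (vertical axes) against the mean log2 value of 22 skeletal muscle markers (horizontal axes). Each point is 1 array, numbered by replicate; red is KO, blue is WT, circles are set 1 and squares set 2. KO replicate 3 lies at the left (5.69) and WT replicate 3 at the right (10.60) of every panel.

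From aldolase to pyruvate kinase, the steps that turn fructose bisphosphate into pyruvate, no member was called different between KO and WT. Aldoa and Gapdh were tied in set 1, and Aldoc was below background on every array, so their small differences say little. The 95% interval of Pkm over both sets ran from -0.60 to 0.43. None of the 7 measured members had an unadjusted p under 0.05 over both sets, within a set or between the sets, and all differences over both sets lay between -0.09 and 0.11. Tpi1, which interconverts the triose phosphates, read 13.03 and 12.92 in KO against 13.00 and 12.83 in WT in set 1, and 13.37 and 13.61 in KO against 13.67 and 13.70 in WT in set 2. The groups overlapped in set 1, and in set 2 both KO arrays were lower, by -0.20 (SE 0.12). Pgk1, the first ATP-forming enzyme of glycolysis, read 17.45 and 17.45 in KO against 17.45 and 17.43 in WT in set 1, and 17.13 and 17.47 in KO against 17.00 and 17.20 in WT in set 2. Its difference over both sets was 0.11 (95% interval -0.12 to 0.34), and the groups overlapped in set 2. The ID of this probe set names chromosome 12, whereas RefSeq places Pgk1 on chromosome X. A second Pgk1 probe set, whose ID names X, differed by -0.05 in set 1 and 0.24 in set 2. It read 15.3485 and 15.3524 in KO against 15.452 and 15.3572 in WT in set 1. In set 2 it read 15.586 and 15.9114 in KO against 15.4232 and 15.585 in WT. Its groups were thus narrowly parted in opposite directions in the sets, and the counts of parted members do not include it.

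Of the other members of this stretch, Pgam1 (phosphoglycerate mutase) differed by 0.15 in set 1 and -0.21 in set 2, and Pkm (pyruvate kinase) by -0.26 and 0.08. Aldoa, the main aldolase of muscle and many other tissues, differed by -0.04 in set 2, and Gapdh by -0.07. Aldoc, the aldolase typical of brain, was below background on every array (3.45 to 4.37).

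Several abundant transcripts carried little information in set 1. Aldoa, Gapdh, Pdk4 and Pck1 had one identical value on all 4 arrays of that set, as 86 genes did in all. Ldha had one value on 3 of the 4 arrays, and Pgk1 on 2. Gapdh, Pdk4 and Pck1 lay within 0.1 of the highest value there, at 19.93, so set 1 allows no comparison of KO with WT for them. Aldoa was tied at 13.12, far below the highest value, and the cause of the tie was not tested. In set 2, Pdk4 remained within 0.1 of the highest value (19.68 to 19.77) and no fold is given for it. Gapdh and Pck1 were below that margin in set 2.

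**Figure D4:**
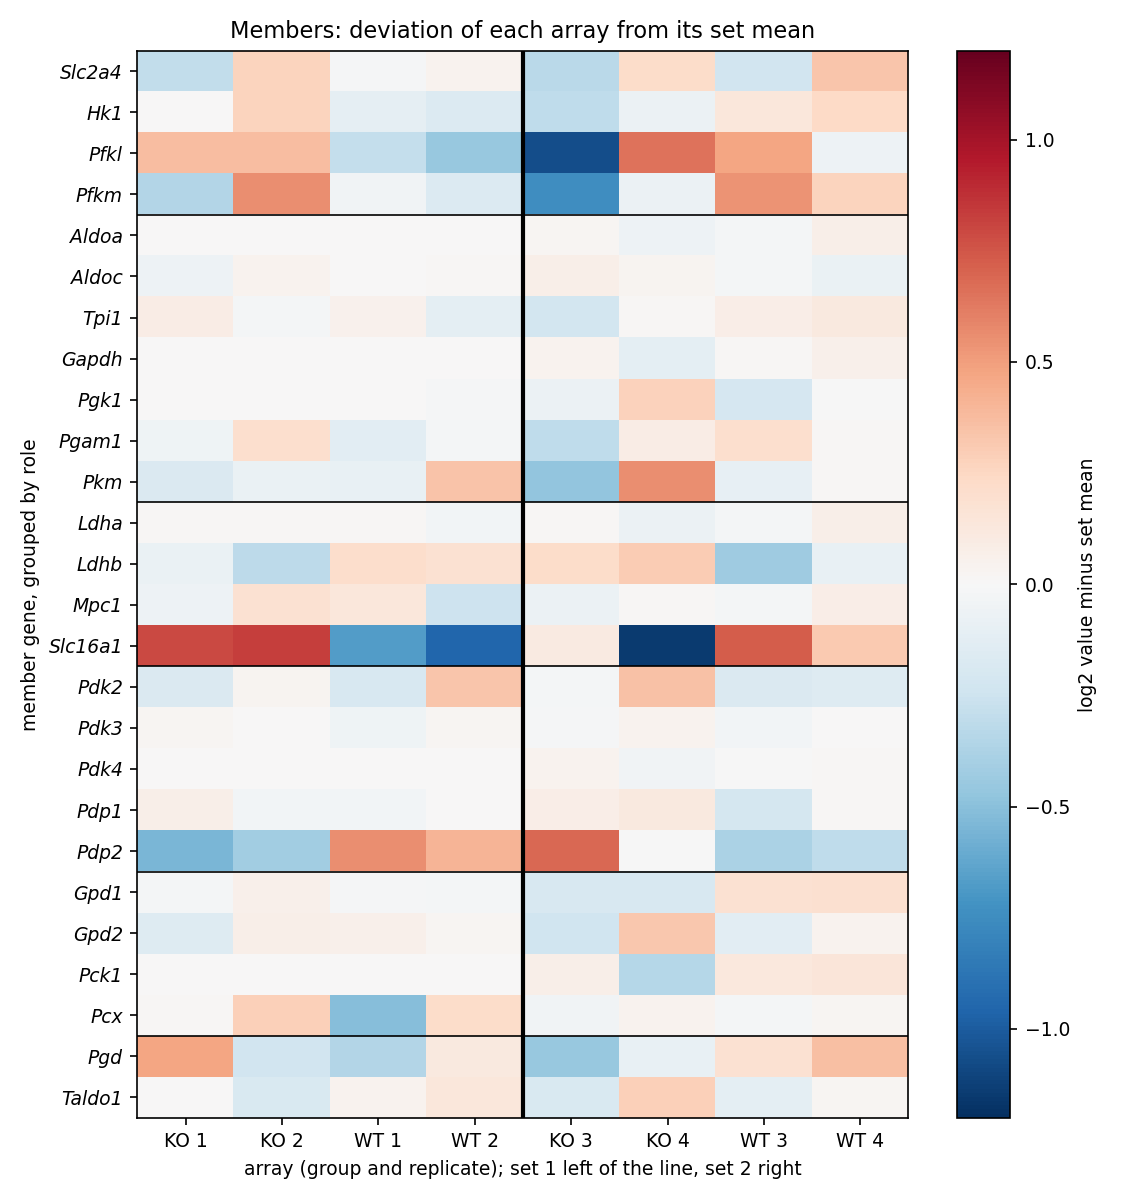
Deviation of each array from the mean of its set, in log2 units, for the 26 measured members (rows, grouped by role). Columns run KO then WT within set 1 (left of the line) and within set 2 (right of it); red is above and blue below the set mean. Slc16a1 and Pdp2 turn over between the sets, and Aldoa, Gapdh, Pdk4 and Pck1 are white in set 1 because their values there are identical.

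Lactate and pyruvate transport held Slc16a1, whose differences within set 1 and within set 2 were the largest of the 26 members. None of the 4 measured had an unadjusted p under 0.05 over both sets, and 2 of them did within set 1, within set 2 and between the sets, where 7.73%, 15.1% and 14.9% of all genes did. Slc16a1 encodes the monocarboxylate transporter MCT1, which moves lactate, pyruvate and ketone bodies across the cell membrane. It read 14.34 and 14.37 in KO against 12.87 and 12.59 in WT in set 1, and 13.69 and 12.44 in KO against 14.32 and 13.90 in WT in set 2. Both KO arrays were higher than both WT arrays in set 1 and lower than both in set 2. The difference was 1.63 in set 1, 3.09-fold (SE 0.37, limma adjusted p = 0.360), and -1.04 in set 2 (SE 0.37, limma adjusted p = 0.262). The sets differed by -2.67 (95% interval -3.92 to -1.41, limma adjusted p = 0.0864), so the mean over both, 0.29 (SE 0.55), describes neither set. In set 1 the liver marker means were 11.89 and 8.65 in KO against 8.23 and 6.43 in WT, and their part in the Slc16a1 difference was not tested.

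Ldha and Ldhb encode the subunits of lactate dehydrogenase, which interconverts pyruvate and lactate. Ldhb read 15.40 and 15.17 in KO against 15.69 and 15.67 in WT in set 1, and 15.93 and 16.01 in KO against 15.28 and 15.61 in WT in set 2. Its groups were parted in both sets, with KO lower in set 1 by -0.39 and higher in set 2 by 0.52 (SE 0.14 each). The sets differed by 0.92 (95% interval 0.44 to 1.39, limma adjusted p = 0.104). Ldha read 11.63 and 11.63 in KO against 11.63 and 11.59 in WT in set 1, and it differed by -0.05 in set 2 (SE 0.09). Mpc1, a subunit of the carrier that brings pyruvate into mitochondria, differed by 0.12 in set 1 and -0.05 in set 2, with overlapping groups in both.

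**Figure D5:**
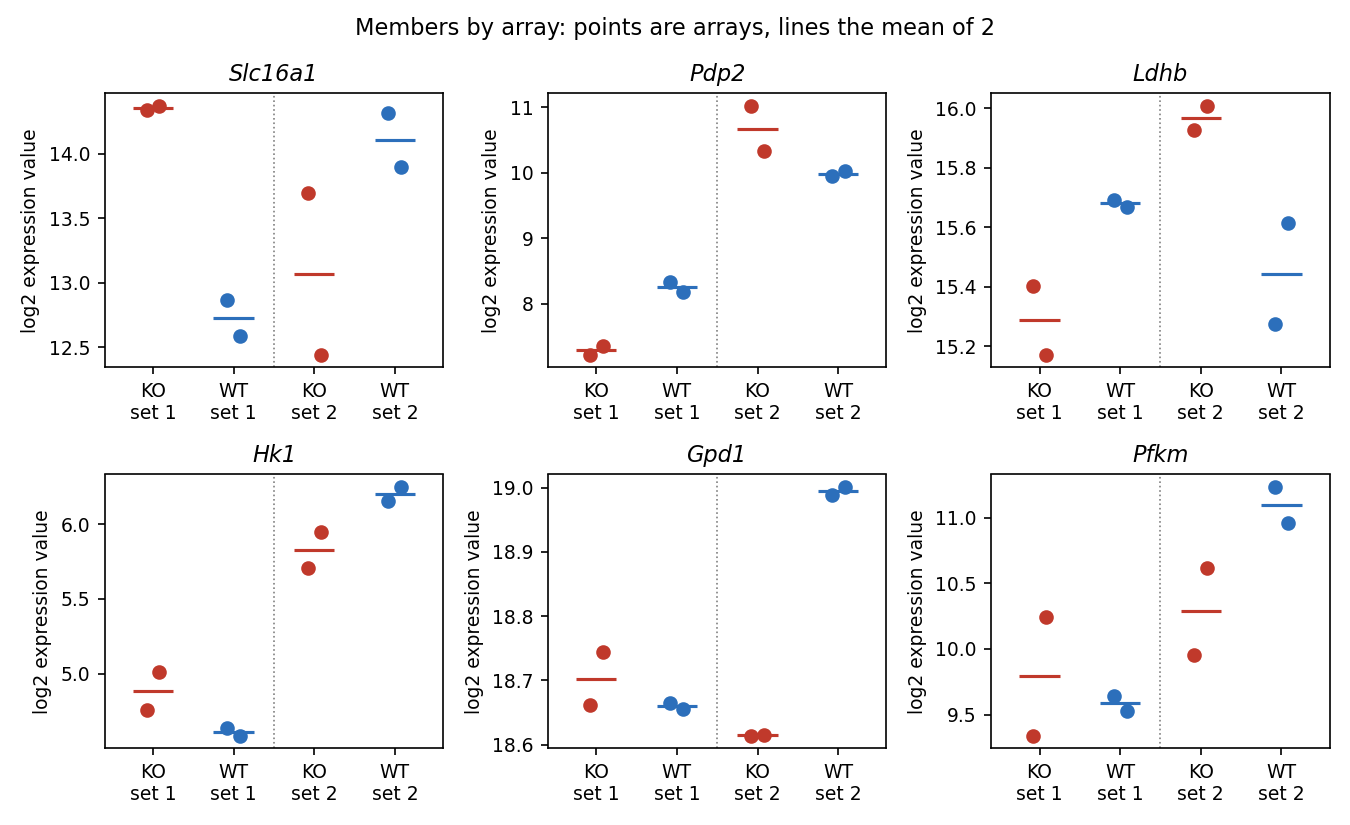
Log2 values of Slc16a1, Pdp2, Ldhb, Hk1, Gpd1 and Pfkm on each array (points), with the mean of the 2 arrays of each group and set (lines); KO is red and WT blue, with set 1 left of the dotted line and set 2 right of it. The order of KO and WT is opposite in the 2 sets for Slc16a1, Pdp2, Ldhb and Hk1, and Gpd1 is parted in set 2 alone.

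Among the genes that control pyruvate dehydrogenase, the phosphatase Pdp2 had the largest differences within the sets. Pdp2 read 7.22 and 7.35 in KO against 8.33 and 8.18 in WT in set 1, and 11.02 and 10.33 in KO against 9.95 and 10.02 in WT in set 2. Both KO arrays were below both WT arrays in set 1 and above both in set 2. The differences were -0.97 (SE 0.21, limma adjusted p = 0.332) and 0.69 (SE 0.21, limma adjusted p = 0.205). The sets differed by 1.66 (95% interval 0.94 to 2.38, limma adjusted p = 0.0746). That difference was just past the threshold, with a limma adjusted p of 0.0498, when only genes above background were tested. With the replicate number as a block its limma adjusted p was 0.131.

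The other phosphatase, Pdp1, read 5.93 and 5.83 in KO against 5.83 and 5.87 in WT in set 1, and 7.40 and 7.44 in KO against 7.12 and 7.34 in WT in set 2. Its difference over both sets was 0.11 (95% interval -0.07 to 0.30), with overlapping groups in set 1. Of the kinases that switch pyruvate dehydrogenase off, Pdk2 read 14.52 and 14.73 in KO against 14.50 and 15.03 in WT in set 1. In set 2 it read 15.02 and 15.39 in KO against 14.87 and 14.88 in WT, with both KO arrays higher by 0.33 (SE 0.20). Pdk3 was above background in 4 of 8 arrays and differed by 0.03 in each set. Pdk4, the kinase known to be induced by fasting and fatty acids, was at the top of the scale on all 8 arrays.

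Glycerol 3-phosphate comes from the glycolytic intermediate dihydroxyacetone phosphate through Gpd1, or from pyruvate and lactate through Pcx and Pck1. None of the 4 members of this group had an unadjusted p under 0.05 over both sets. Gpd1, the cytosolic glycerol 3-phosphate dehydrogenase, read 18.66 and 18.74 in KO against 18.66 and 18.66 in WT in set 1, and 18.61 and 18.61 in KO against 18.99 and 19.00 in WT in set 2. The groups overlapped in set 1. In set 2 both KO arrays were lower, by -0.38 (SE 0.09, limma adjusted p = 0.134), and the sets differed by -0.42 (95% interval -0.72 to -0.12, limma adjusted p = 0.187). Pck1, the cytosolic phosphoenolpyruvate carboxykinase of glyceroneogenesis, read 19.20 and 18.79 in KO against 19.25 and 19.28 in WT in set 2. Both KO arrays were below both WT arrays, by -0.27 (SE 0.14, limma adjusted p = 0.425), and set 1 gave no comparison. The tied values of set 1, which have no spread, also enter that SE. Gpd2, the mitochondrial enzyme of the glycerol phosphate shuttle, differed by -0.09 in set 1 and 0.08 in set 2. Pcx, pyruvate carboxylase, differed by 0.29 and by less than 0.01.

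Of the pentose phosphate pathway, 2 of 4 members were measured, and neither had an unadjusted p under 0.05 in any of the comparisons. Pgd, the NADPH-forming 6-phosphogluconate dehydrogenase, read 10.01 and 9.30 in KO against 9.18 and 9.65 in WT in set 1, and 10.87 and 11.23 in KO against 11.51 and 11.68 in WT in set 2. The groups overlapped in set 1 and were parted in set 2, with KO lower by -0.54 (SE 0.27, limma adjusted p = 0.404). Taldo1, the transaldolase of the non-oxidative arm, read 12.07 and 11.89 in KO against 12.11 and 12.20 in WT in set 1, and 12.96 and 13.44 in KO against 13.03 and 13.17 in WT in set 2. KO was lower in set 1 by -0.18 (SE 0.17) and the groups overlapped in set 2.

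Of 42 further genes of these pathways, 39 were measured. Over both sets 16 were higher and 23 lower in KO, 1 (2.56%) had an unadjusted p under 0.05, against 4.82% of all genes, and none passed adjustment. That gene was Tigar, a fructose bisphosphatase that lowers flux through glycolysis. It read 4.99, 5.55, 6.17 and 5.91 in KO replicates 1 to 4, against 5.66, 5.61, 6.84 and 6.28 in WT replicates 1 to 4. Both KO arrays were below both WT arrays in each set, and the difference over both was -0.45 (SE 0.17, limma adjusted p = 0.984).

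Parted in one direction in both sets were 3 of the 39, Tigar, Fbp1 and Eno2, where 5.3% of all genes were. Fbp1, a gluconeogenic enzyme abundant in liver, read 6.42, 5.08, 4.63 and 4.58 in KO, against 4.85, 4.31, 4.35 and 4.53 in WT. Its highest value fell on KO replicate 1, the array with the highest liver marker mean, and the part of liver RNA in it was not tested. All 4 of its values in set 2 were below background, so the parting there is one at background level. Eno2, the neuronal enolase, was below background on all arrays. It read 3.51, 3.50, 4.55 and 4.61 in KO replicates 1 to 4, against 3.50, 3.47, 4.51 and 4.53 in WT replicates 1 to 4, a difference of 0.04.

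A difference between the sets had an unadjusted p under 0.05 for 7 of the 39 (17.9%), against 14.9% of all genes and 23.7% of genes above background, and none passed adjustment. Slc16a7, which encodes the monocarboxylate transporter MCT2, had the lowest of these p values. It read 5.89 and 5.81 in KO against 5.48 and 5.29 in WT in set 1, and 6.60 and 5.78 in KO against 7.75 and 7.48 in WT in set 2. As for Slc16a1, KO was above WT in set 1 and below WT in set 2, by 0.47 and -1.43 (SE 0.25 each), and the sets differed by -1.89 (limma adjusted p = 0.0838). Bsg, the chaperone that carries these transporters to the membrane, was parted in the opposite order, by -0.31 and 0.09 (SE 0.12 each).

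Slc2a1, the insulin-independent glucose transporter, read 6.08 and 5.89 in KO against 6.17 and 6.57 in WT in set 1, and 7.87 and 8.84 in KO against 7.37 and 7.61 in WT in set 2. The sets differed by 1.25 (SE 0.43, limma adjusted p = 0.241). Pck2, the mitochondrial phosphoenolpyruvate carboxykinase, read 6.23 and 6.00 in KO against 6.45 and 7.12 in WT in set 1, and 8.09 and 9.08 in KO against 6.93 and 7.60 in WT in set 2. For both genes KO was lower in set 1 and higher in set 2, and for Pck2 the sets differed by 1.99 (SE 0.55, limma adjusted p = 0.158).

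Pgam2, the muscle phosphoglycerate mutase, read 4.30 and 4.63 in KO against 4.33 and 4.16 in WT in set 1, and 3.95 and 4.57 in KO against 5.76 and 4.88 in WT in set 2. Values of KO and WT overlapped in set 1, and in set 2 KO was lower by -1.06, where the muscle markers were also lower in KO. Both KO values of Pgam2 in set 2 were below the background of their arrays (4.79 and 4.87), so the size of that difference is uncertain. The part of muscle RNA in it was not tested. Gpd1l, a relative of Gpd1, read 6.53 and 6.59 in KO against 6.87 and 6.87 in WT in set 1, and 7.88 and 8.01 in KO against 7.53 and 7.91 in WT in set 2. KO was lower in set 1 and the groups overlapped in set 2.

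H6pd, the hexose 6-phosphate dehydrogenase of the endoplasmic reticulum, read 9.99 and 9.95 in KO against 9.44 and 9.47 in WT in set 1, and 9.67 and 10.38 in KO against 10.31 and 10.23 in WT in set 2. KO was higher in set 1, and in set 2 the KO arrays were the lowest and the highest of the 4. Shpk, a kinase of the pentose phosphate sugar sedoheptulose, read 5.46 and 5.60 in KO against 5.47 and 5.28 in WT in set 1, and 6.46 and 6.68 in KO against 6.87 and 7.14 in WT in set 2. The groups overlapped in set 1, and KO was lower in set 2 by -0.43.

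Regulators of glucose use were listed separately. Of 16 listed, 14 were measured and Esrra and Insr were not analysed here. None had an unadjusted p under 0.05 over both sets, and 9 (64.3%) had one for the difference between the sets, against 14.9% of all genes and 23.7% of genes above background, with none past adjustment. This list was chosen with earlier results of these data known, so its share cannot be read as an excess among regulators. Irs2, an adaptor of the insulin receptor, read 9.70 and 9.19 in KO against 10.67 and 9.96 in WT in set 1, and 14.76 and 14.09 in KO against 9.04 and 11.02 in WT in set 2. KO was lower in set 1 by -0.87 and higher in set 2 by 4.40 (SE 0.62 each), and the sets differed by 5.27 (95% interval 3.19 to 7.35, limma adjusted p = 0.0622).

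Irs1, another such adaptor, read 7.07 and 6.48 in KO against 8.20 and 9.11 in WT in set 1, and 10.92 and 8.49 in KO against 8.17 and 8.50 in WT in set 2. KO was lower in set 1, and in set 2 KO replicate 3 was high while KO replicate 4 lay between the WT arrays, so the mean difference of 1.37 there rests on 1 array. Ppargc1a, a coactivator of mitochondrial genes, read 11.17 and 12.51 in KO against 12.14 and 13.38 in WT in set 1, and 15.72 and 15.40 in KO against 14.10 and 14.31 in WT in set 2. Its groups overlapped in set 1, and KO was higher in set 2 by 1.36 (SE 0.51).

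In the other direction, Nr1d1, a clock repressor, read 9.63 and 11.29 in KO against 8.96 and 9.35 in WT in set 1, and 11.59 and 12.13 in KO against 12.88 and 12.79 in WT in set 2. KO was higher in set 1, by 1.30 on average with most of it from KO replicate 2, and lower in set 2 by -0.98. Hif1a, the oxygen-sensing activator of glycolytic genes, read 10.26 and 10.10 in KO against 9.86 and 9.73 in WT in set 1, and 11.14 and 10.73 in KO against 11.44 and 11.36 in WT in set 2. The groups were parted in both sets, by 0.38 and -0.47 (SE 0.15 each). Mlxipl, which encodes the glucose-sensing factor ChREBP, differed by 0.28 and -0.57, and Akt2, the insulin-signalling kinase, by 0.14 and -0.39. Tbc1d1 and Tbc1d4, which restrain the movement of glucose transporters to the membrane, differed by 0.19 and -0.15 and by 0.72 and -0.30. Mlx, the partner of ChREBP, differed by -0.55 in set 1 and -0.03 in set 2, with -0.29 (SE 0.14) over both.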

How the data were processed

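The deposited log2 values are RMA values for core exons that the authors derived with Affymetrix Expression Console, per the labels. The sources used here state no versions and no genome build, and no scanner files were used. The number of arrays limits the precision. The platform annotation gave the gene names: of 72688 probe sets, 6732 were controls, 31258 had 1 gene, 1492 several and 33206 none. RefSeq (GRCm38.p6) served for names and matched 31244. The brightest probe set stood for each gene.

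KO minus WT was fitted with limma 3.58.1 in R 4.3.3 (lmFit, eBayes) over all 30702 genes with the array set as a block. The differences within and between the sets came from a fit with 4 means. P values were adjusted by Benjamini-Hochberg, with 0.05 as the threshold, and the procedure was tested on simulated data. Background was the 95th percentile of 1088 olfactory receptor genes of an array (3.81 to 4.87). A gene counted as above background with at least 4 arrays over it, as 25 of the 26 members did. "Parted" means that KO and WT values did not overlap.

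Members and gene lists were chosen with earlier results of these data known. Per-array values are given for members or pathway genes with an unadjusted p under 0.05 over both sets or between them, for those parted in one direction in both sets, and for the 2 with the lowest p in each role group. Of the regulators, some are given by their differences alone, and those named were chosen after their values were seen. Replicates are separate mice per the labels. Alternatives were the block, low values, saturation, normalization, probe set choice, variance model, leaving out arrays and, added after seeing the data, leaving out tied genes.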

Additional observations from a re-analysis of the deposited data

Results flagged for a closer look

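A value was flagged where it stood far from the other 3 in a group of 4 arrays. Chance meets that rule in about 1 in 20 groups whose values share a single scale. The array sets lie on different scales, so that rate does not hold here. Such values were found for 4 genes. These were KO replicate 3 for Pgk1 (17.13) and Slc16a7 (6.60), KO replicate 4 for Pdhb (18.74), a subunit of pyruvate dehydrogenase, and WT replicate 4 for Pdha1 (18.05), another subunit. All 4 values lie in set 2, on a different scale from set 1. The Pgk1 value is that of the probe set whose ID names chromosome 12.

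KO and WT were parted in opposite directions in the array sets for 4 members of the module. Set 2 minus set 1 was -2.67 for Slc16a1, 1.66 for Pdp2, 0.92 for Ldhb and -0.65 for Hk1. Among the further pathway genes it was 1.25 for Slc2a1, -1.89 for Slc16a7, 0.40 for Bsg and 1.99 for Pck2. Among the regulators it was 5.27 for Irs2, -2.28 for Nr1d1, -0.85 for Mlxipl, -0.85 for Hif1a, -0.53 for Akt2 and -0.34 for Tbc1d1. None passed the adjusted limma test of that difference, and the sets also differ in scale and in the muscle, liver, adipocyte and macrophage markers given above, whose part was not tested.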

How the results depend on the processing

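Calls over all genes depended on the setting, above all for the difference between the sets, where 153 genes passed. That count was 368 with low values left out, 82 with median centring, 4 with eBayes with trend, 3 with the replicate number as a block (replicate block), and 0 to 10 with 1 array left out. Within set 2, where 1 gene passed, it was 14 with low values left out, 0 under quantile normalization across all arrays, 0 under quantile normalization within sets, 0 with the arrays of that set alone, and 0 to 10 with 1 array left out. Over both sets it was 0 to 1 and within set 1 it was 0 to 14 with 1 array left out, and the replicate block over both sets called 0. Same-numbered arrays correlated at 0.701, 0.473, 0.479 and 0.61 in their deviations from group means. For replicates 2 and 3 an array of another number correlated better (0.616 and 0.628), and for replicates 1 and 4 none did. With the set removed the correlations were 0.107 in set 1 and -0.0891 in set 2. The 2 arrays of a group and set then deviate by equal and opposite amounts, so this check says little. No pairing is shown. Among members, Pdp2 passed between the sets with low values left out (1.66). Signs turned under quantile normalization across all arrays and within sets for Pdk2 in set 1 (0.0550 and 0.0487), for Pdk2 between the sets (-0.0220 and -0.00523) and for Taldo1 in set 2 (-0.0340 and -0.0256). They also turned for Pgk1 in set 1 under median centring (-0.0189) and with the mean of probe sets (-0.0225). With 1 array left out, differences over both sets lay between -0.168 and 0.0596 for Hk1, -0.0616 and 0.622 for Pfkl, -0.128 and 0.0045 for Tpi1, -0.0940 and 0.203 for Ldhb, and -0.0263 and 0.249 for Pdk2. They lay between -0.445 and 0.0559 for Pdp2, -0.029 and 0.810 for Slc16a1, and -0.162 and 0.0277 for Taldo1. Within set 1 they lay between -0.248 and 0.661 for Pfkm, -0.0205 and 0.146 for Tpi1, -0.406 and 0.127 for Pdk2, -0.0195 and 0.0878 for Pdp1, and -0.116 and 0.587 for Pgd. Within set 2 they lay between -1.27 and 0.440 for Pfkl (0.440 without KO replicate 3), and -0.137 and 0.338 for Taldo1. These ranges cover the 14 members with per-array values and a lone array was taken to vary like the others; the difference between the sets of none of these 14 turned sign when 1 array was left out. The cause of these changes was not tested. With 2 arrays per group and set, small differences were not detectable, and large ones could be missed too. Slc16a1 at 1.63 in set 1 and Irs2 at 4.40 in set 2 did not pass adjustment.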
